A study of Mus musculus with 20 samples.

Results

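This report follows 10 mouse genes of death receptor and TNF signaling, Fas, Fasl, Tnfrsf10b, Tnfsf10, Tnf, Tnfrsf1a, Tnfrsf1b, Casp8, Fadd and Cflar, in whole blood. The members were all non-control probes of the array that carry one of these 10 gene names, which gave 13 probes of 39429 on the array and 10 gene names of 31093. Signals came from 20 one-colour arrays, 1 per mouse, with 5 arrays in each of 4 groups. Blood was drawn by cardiac puncture 24 h after whole-body X-rays of 7 Gy or after mock irradiation (0 Gy), from mice with the label WT and from mice with the label Il10-/-. According to the methods, all mice were male littermates aged 8 to 10 weeks, bred from heterozygous parents, with C57BL/6 as the WT background and B6.129P2-Il10tm1Cgn/J as the mutant strain. The altered Il10 allele is present in every cell of the Il10-/- mice from conception and was not induced. The groups therefore share the breeding, the sex and the globin-reduced blood RNA, and differ by genotype, by dose or by both.

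Death receptors are receptors of the TNF family whose cytoplasmic part recruits the adaptor FADD. FADD brings procaspase-8 to the receptor, where it is activated and starts apoptosis, and c-FLIP, the product of Cflar, limits this step. TNF receptors 1 and 2 signal mainly to NF-kB and inflammation, and TNF receptor 1 can also engage caspase-8. In blood, Fas ligand and TRAIL (Tnfsf10) are known from natural killer cells and activated T cells, and TNF and its receptors from monocytes, neutrophils and lymphocytes. Fas and Tnfrsf10b are known as genes that p53 can induce after DNA damage.

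The probes are 60-base oligonucleotides, placed by the file headers on the mouse build mm9. The first 30 bases of each probe that the results below turn on, or that share a gene with another probe, are shown 5′ to 3′ in lower case, with no part marked, so that readings of one gene can be told apart. The Tnfrsf10b probe lies at chr14:70184141-70184200 and the Fas probe at chr19:34402164-34402223, both on the plus strand. The 2 Tnfrsf1a probes lie at chr6:125312376-125312435 and chr6:125311922-125311981, also on the plus strand. The Tnfrsf1b probe lies at chr4:144802359-144802418 on the minus strand. The files place 2 Cflar probes at chr1:58811116-58811175 and chr1:58810660-58810719, and the third, A_55_P1983468, on another chromosome at chr3:39256333-39256392 on the minus strand. No annotation of build mm9 was used here, so the exon or untranslated region of each probe is not given.
Tnfrsf10b A_55_P2027836: gatgtccttttctagtgtgtttgaagccag
Fas A_55_P2091676: gaagaccttccattgatggacagttctttt
Tnfrsf1a A_52_P192426: agcaatctttgtatcaattatatcacacta
Tnfrsf1a A_55_P2051099: ttccaagatgaacctggctgggtgcctgga
Tnfrsf1b A_55_P2033445: aaatctgggattacagacaattgtgccaaa
Cflar A_52_P226929: gatttgacactgaatgtaacttgagactta
Cflar A_55_P1983459: tcatggacaaagtgtatgcgtggaacagtg
Cflar A_55_P1983468: ctttcttgctgatgtataaattgcctcctt

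Values below are log2 signals after scaling each array to one reference array, so a difference of 1 is a 2-fold change, and levels of different probes are not comparable. Of the 13 member probes, 10 probes of 9 genes passed the background filter and the filter on change, which together left 16507 features; the Casp8 probe and 2 of the Cflar probes did not pass and are described without a call. A feature was called at p below 0.001 and a Benjamini-Hochberg adjusted p below 0.1 in limma.

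Some arrays stood apart before any comparison. Between 34.6% and 57.8% of spots were well above background on 19 arrays, and 29.9% on unirradiated WT replicate 5, whose repeated spots also differed most (SD 0.336 against 0.0840 to 0.138 elsewhere). Unirradiated WT replicate 4 held the lowest value of its group for 12 of the 13 member probes and had the highest mean of 8 erythroid markers, 14.65 against 12.79 to 13.97 in the other unirradiated WT arrays. In every group replicates 1 and 2 were the closest pair. Their probes differed with a robust SD of 0.184 to 0.270, against 0.290 to 1.26 for the other 36 pairs within groups, and this was 1.49 to 2.02 times the noise of repeated spots. The pair was counted as 2 mice, as labelled, and results with the pair averaged are given beside those that changed. The mean of 14 liver markers was 4.06 to 5.00 in unirradiated WT and 5.90 to 14.31 in irradiated WT, and 5.18 to 12.28 and 5.22 to 12.51 in unirradiated and irradiated Il10-/- arrays. Of the 14 liver markers, Apoa1, Apoh, Cps1 and Fgg were well above background on 0 of 5 unirradiated WT arrays. Apoa2, Fgb, Ahsg and Cyp2e1 were so on 5 of 5, and the others on 1 to 3. The Il10 probe read 1.12 to 3.66 in mice labelled WT, well above background on 0 of 10 arrays, and 5.67 to 6.80 in mice labelled Il10-/-, well above background on 10 of 10. Whether this probe lies in the altered part of the gene is not given, so it checks nothing about the allele, and directions between genotypes rest on the labels. In blood, fewer cells of a type and less RNA per cell cannot be told apart in any value below.

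Tnfrsf10b, the mouse TRAIL receptor that binds Tnfsf10 and triggers apoptosis, gave the clearest response to radiation among the members. In unirradiated WT mice its signal was 3.33, 3.11, 3.45, 2.48 and 2.62 in replicates 1 to 5, and in irradiated WT mice it was 5.38, 5.40, 5.23, 4.87 and 5.13. In unirradiated Il10-/- mice it was 3.55, 3.53, 3.29, 3.39 and 3.70, and in irradiated Il10-/- mice it was 6.07, 5.90, 5.36, 5.90 and 6.29. Every irradiated array lay above every unirradiated array, in both genotypes. Tnfrsf10b rose by 2.20 ± 0.28 (SE) in WT, a fitted 4.60-fold change (n = 5 and 5, adjusted p = 0.000527 in limma). The rise in Il10-/- mice was 2.41 ± 0.21 (SE), a 5.32-fold change (n = 5 and 5, adjusted p = 4.62e-05 in limma). The rise was seen on 5 of 5 slides in each genotype, each slide holding 1 array of every group, with differences of 1.78 to 2.51 in WT and 2.07 to 2.58 in Il10-/- mice. Unirradiated WT signals were low: 1 of 5 was well above background, against 5 of 5 in irradiated WT, 4 of 5 in unirradiated and 4 of 5 in irradiated Il10-/- mice. Unirradiated WT replicates 4 and 5 were not significant over background either, so the size of the WT fold rests on signals near background. With the values of the deposited series table the WT difference was 1.90 (adjusted p = 0.00228 in limma), smaller but still called.

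The marker lists whose means separated by dose in at least 1 genotype were set beside Tnfrsf10b, and so was heart muscle. The means of 9 B-cell markers did not overlap in either genotype. They were 8.52 to 9.44 without and 5.43 to 6.09 with radiation in WT, and 7.91 to 9.0 and 5.19 to 5.98 in Il10-/- mice. The means of 10 T-cell markers overlapped in WT (8.69 to 9.34 and 7.38 to 8.75). They did not overlap in Il10-/- mice (9.13 to 9.24 and 8.26 to 8.93). In WT the liver means did not overlap between doses, nor did the means of 7 platelet markers (11.93 to 12.48 without and 12.84 to 13.75 with radiation) or of the erythroid markers (12.79 to 14.65 and 11.31 to 12.69). The erythroid means did not overlap in Il10-/- mice either (12.39 to 13.71 and 11.10 to 12.22), while the platelet means met near 13.90 (11.16 to 13.90 and 13.90 to 14.51). The means of 10 heart muscle markers overlapped, at 3.03 to 5.86 and 3.74 to 10.53 in WT and 2.70 to 6.47 and 5.03 to 10.28 in Il10-/- mice. Within irradiated WT the order of the liver means, 14.27, 14.31, 11.45, 5.90 and 8.37 in replicates 1 to 5, was the order of the Tnfrsf10b signals. Replicate 4, lowest in both, had a Tnfrsf10b signal of 4.87, above all 5 unirradiated WT arrays. Irradiated Il10-/- replicate 3 had a liver mean of 5.22 and a Tnfrsf10b signal of 5.36. Unirradiated Il10-/- replicates 3 and 4 had liver means of 11.30 and 12.28 and Tnfrsf10b signals of 3.29 and 3.39. The part of liver, platelet, erythroid, heart, B-cell or T-cell RNA in the Tnfrsf10b values was not tested beyond these values and the liver covariate. With the liver mean as a covariate the difference was 1.86 in WT (adjusted p = 0.0544 in limma, not called) and 2.41 in Il10-/- (adjusted p = 6.64e-05 in limma, called). With replicates 1 and 2 averaged it was 2.21 (adjusted p = 0.00683 in limma) and 2.40 (adjusted p = 0.00143 in limma), called in both genotypes.

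Fas, the receptor for Fas ligand, was higher on every irradiated array than on every unirradiated array of its genotype, but by less than Tnfrsf10b. In WT mice Fas read 7.19, 6.99, 7.18, 5.75 and 6.61 without radiation and 7.71, 7.75, 7.74, 7.35 and 8.12 after it. Among Il10-/- mice it read 7.26, 7.38, 7.16, 7.50 and 7.36 without radiation and 8.10, 8.09, 7.86, 8.26 and 8.30 after it. The unirradiated Il10-/- arrays were tightly grouped (SD 0.13), whereas the unirradiated WT arrays spread more widely (SD 0.60), with replicate 4 lowest. Fas rose by 0.79 ± 0.18 (SE) in Il10-/- mice, 1.73-fold (n = 5 and 5, adjusted p = 0.00835 in limma). In WT the difference was 0.99 ± 0.33 (SE) (n = 5 and 5, adjusted p = 0.0452 in limma), and it did not reach the call. At an adjusted p below 0.05 alone, Fas was called in both genotypes. With all 4 groups in 1 fit it was called in WT (adjusted p = 0.00532 in limma) and not in Il10-/- mice (adjusted p = 0.0310 in limma). The call in Il10-/- mice rested close to the threshold. It was lost under 8 alternatives: the replicate block (adjusted p = 0.0190 in limma), replicates 1 and 2 averaged (adjusted p = 0.0473), all 4 groups in 1 fit, the liver covariate, scaling on the array median, the 75th percentile or quantiles, and normexp background correction, under which the difference was 0.15 (adjusted p = 0.913). It was also lost when any array but irradiated replicate 3 was left out (differences of 0.75 to 0.86 over the 10 left-out arrays).

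The RefSeq promoter table used here, of build GRCm38.p6, held 9 of the 10 members, and Tnfrsf10b was not analysed. The 250 bases before the start of Fas are shown because Fas is the called member in the table. They lie at chr19:34290409-34290658 on the plus strand, and the capitals mark a match to the gamma-activated site TTCNNNGAA, at bases -93 to -85 from the start.
Fas promoter: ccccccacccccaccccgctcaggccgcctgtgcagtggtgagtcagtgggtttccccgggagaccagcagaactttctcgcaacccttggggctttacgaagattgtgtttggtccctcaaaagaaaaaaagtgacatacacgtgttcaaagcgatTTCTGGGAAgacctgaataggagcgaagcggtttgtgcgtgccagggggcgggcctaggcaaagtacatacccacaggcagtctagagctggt
Both strands of the 250 bases were searched for 5 motifs. TTCNNNGAA was found in 3 members, Fas, Tnfrsf1a and Tnfrsf1b, and in 7.02% of all 32851 promoters. The interferon-stimulated core GAAANNGAAA was found in Tnfrsf1b, and in 2.98% of promoters. The p53 half-site was found in Fasl, and in 7.13% of promoters, and the NF-kB motif in 0 members, and in 7.25% of promoters. TATAAA was found in Tnf and Cflar, and in 12.4% of promoters. These are matches of letters in a short window, and say nothing of binding.

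Tnfrsf1a, TNF receptor 1, was read by 2 probes that both put unirradiated WT lowest. With probe A_52_P192426 the signals were 7.76 to 9.21 (median 8.99) in unirradiated WT and 9.50 to 10.16 (median 9.75) in irradiated WT. They were 9.35 to 10.03 (median 9.67) in unirradiated Il10-/- mice and 9.77 to 10.74 (median 9.97) in irradiated Il10-/- mice. The unirradiated WT arrays did not overlap with either the irradiated WT or the unirradiated Il10-/- arrays, while the Il10-/- groups overlapped each other. The mean of 7 neutrophil markers was 10.25 to 11.49 and 10.57 to 11.01 in unirradiated and irradiated WT, and 12.12 to 13.44 and 11.48 to 13.41 in Il10-/- mice. The mean of 7 monocyte markers was 7.59 to 9.07 and 8.68 to 9.45 in WT, and 8.92 to 9.56 and 9.03 to 9.41 in Il10-/- mice, and the part of these cells in the Tnfrsf1a values was not tested. The WT difference after radiation was 0.99 ± 0.32 (SE) with this probe (n = 5 and 5, adjusted p = 0.0424 in limma) and 0.72 ± 0.25 (SE) with probe A_55_P2051099 (adjusted p = 0.0580 in limma). Neither was called. In Il10-/- mice the differences were 0.38 ± 0.24 (SE) and 0.64 ± 0.25 (SE), with adjusted p = 0.277 and 0.0896 in limma.

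Tnfrsf1b, TNF receptor 2, was the one receptor of the members with lower means after radiation in both genotypes. In WT mice it read 7.87, 7.70, 7.58, 5.58 and 7.72 without radiation and 6.62, 6.45, 6.63, 6.81 and 7.24 after it. Among Il10-/- mice it read 7.54, 7.60, 6.95, 7.97 and 7.51 without radiation and 6.89, 6.73, 6.71, 6.95 and 6.60 after it. Only unirradiated WT replicate 4 lay below the irradiated WT arrays, and in Il10-/- mice the groups touched at unirradiated replicate 3. The difference was -0.74 ± 0.22 (SE) in Il10-/- mice (n = 5 and 5, adjusted p = 0.0278 in limma) and -0.53 ± 0.43 (SE) in WT (adjusted p = 0.388 in limma), and neither was called. Without unirradiated WT replicate 4 the WT difference was -0.96 (adjusted p = 0.0157 in limma), still short of the call.

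**Figure D1:**
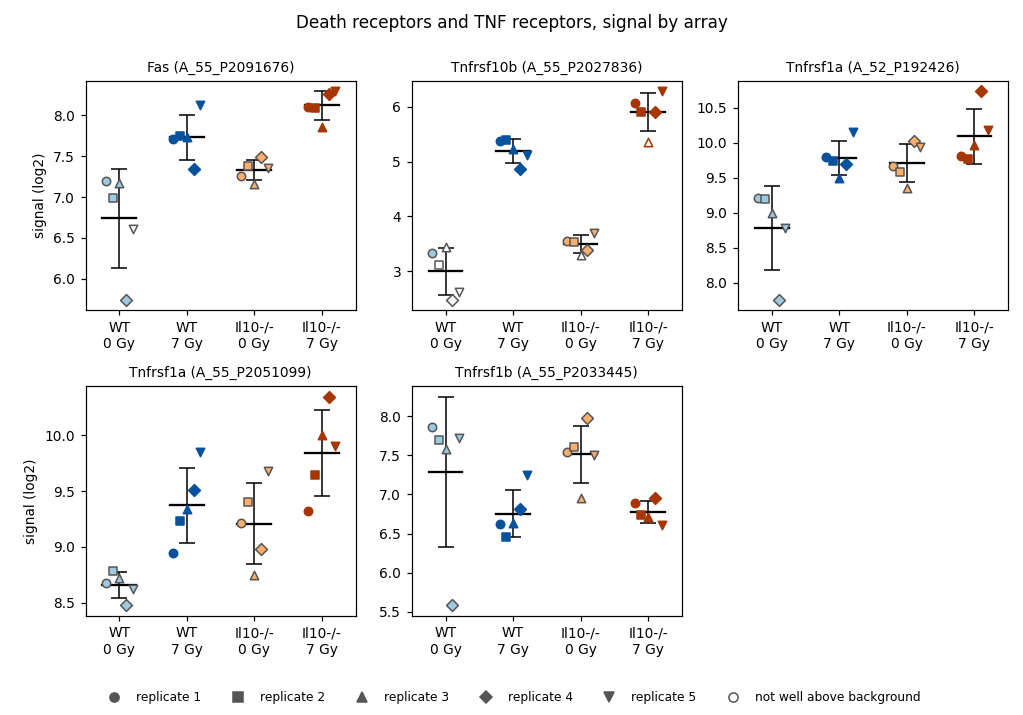
Log2 signal (vertical axis) of the 5 receptor probes in the 4 groups (horizontal axis); each symbol is 1 array, its shape the replicate, open where the spot was not well above background, and bars give the mean ± SD (n = 5). Tnfrsf10b lies at 2.48 to 3.70 on the 10 unirradiated arrays and at 4.87 to 6.29 on the 10 irradiated arrays, and Tnfrsf1b at 5.58 on unirradiated WT replicate 4.

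None of the ligands was called in any comparison, and Fasl and Tnfsf10 had their highest means in irradiated Il10-/- mice. Fasl, the ligand of Fas and a product of cytotoxic lymphocytes, read 6.06, 5.98, 6.64, 4.96 and 5.29 in unirradiated WT and 6.37, 6.39, 6.81, 7.55 and 6.74 in irradiated WT. It read 7.75, 7.66, 6.62, 6.99 and 6.57 in unirradiated Il10-/- mice and 8.15, 8.04, 9.16, 7.70 and 7.54 in irradiated Il10-/- mice. The unirradiated genotypes overlapped only at the highest WT value, 6.64, and the Il10-/- values 6.57 and 6.62, and the irradiated genotypes only at 7.55 in WT against 7.54. The mean of Fasl was 1.33 ± 0.38 (SE) higher in mice labelled Il10-/- than in mice labelled WT without radiation (n = 5 and 5, adjusted p = 0.178 in limma). After radiation it was 1.34 ± 0.34 (SE) higher (n = 5 and 5, adjusted p = 0.210 in limma). The radiation differences were 0.98 ± 0.37 (SE) in WT and 1.00 ± 0.35 (SE) in Il10-/- mice, with adjusted p = 0.0726 and 0.0589 in limma, and were positive on 5 of 5 slides in each genotype. These sizes moved with the processing: under normexp the radiation differences of Fasl were 0.42 and 0.26 and the genotype differences 0.68 and 0.52, and with the liver covariate the WT response was 1.75.

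Tnfsf10, the ligand TRAIL, followed a similar order of groups. Its signals were 4.15 to 5.69 (median 5.43) in unirradiated WT, 5.07 to 6.17 (median 5.77) in irradiated WT, 5.68 to 6.34 (median 5.94) in unirradiated Il10-/- and 6.28 to 6.84 (median 6.62) in irradiated Il10-/- mice. The irradiated genotypes did not overlap, and all neighbouring groups in this order did. The irradiated genotypes differed by 0.87 ± 0.25 (SE) (n = 5 and 5, adjusted p = 0.238 in limma). The radiation difference was 0.61 ± 0.36 (SE) in WT and 0.62 ± 0.21 (SE) in Il10-/- mice, with adjusted p = 0.240 and 0.0452 in limma and no call. The mean of 8 natural killer cell markers was 7.15 to 7.56 and 7.2 to 7.98 in unirradiated and irradiated WT, and 6.99 to 8.27 and 7.2 to 8.03 in Il10-/- mice, so all groups overlapped. The mean of 10 T-cell markers was 8.69 to 9.34 and 7.38 to 8.75 in WT, and 9.13 to 9.24 and 8.26 to 8.93 in Il10-/- mice. The part of either cell type in the ligand values was not tested.

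Tnf, the inflammatory cytokine itself, was low on all arrays. Its signals were 3.12 to 4.38 (median 3.98) in unirradiated WT, 3.09 to 4.42 (median 3.90) in irradiated WT, 4.05 to 4.75 (median 4.18) in unirradiated Il10-/- and 3.67 to 4.54 (median 4.47) in irradiated Il10-/- mice. All 4 groups overlapped. It was well above background on 3, 2, 5 and 3 of 5 arrays in these groups. The radiation difference was -0.06 (95% interval -0.84 to 0.73) in WT and -0.11 (95% interval -0.65 to 0.44) in Il10-/- mice.

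**Figure D2:**
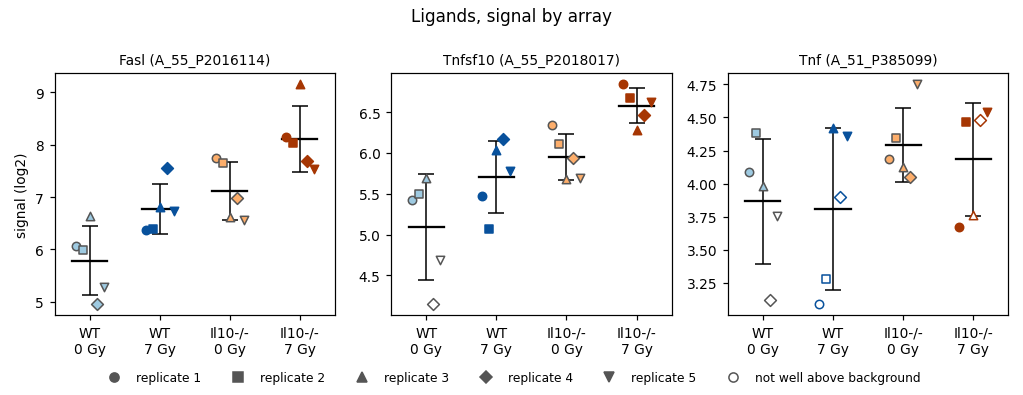
Log2 signal (vertical axis) of Fasl, Tnfsf10 and Tnf in the 4 groups (horizontal axis), drawn as for the receptors, with the mean ± SD (n = 5). Fasl has its lowest value, 4.96, in unirradiated WT and its highest, 9.16, in irradiated Il10-/- mice, while the Tnf groups all overlap between 3.09 and 4.75.

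Of the transcripts for proteins inside the cell, Fadd and 1 of the 3 Cflar probes were tested, and neither was called. Fadd, the adaptor of the death receptors, read 4.29 to 6.36 (median 5.13) in unirradiated WT, where replicate 4 was the lowest and replicate 5 the highest. Neither of these arrays was well above background for Fadd. It read 5.12 to 5.71 in irradiated WT, 4.81 to 5.40 in unirradiated Il10-/- and 4.54 to 5.41 in irradiated Il10-/- mice, and all 4 groups overlapped. Its largest difference was -0.46 ± 0.25 (SE) between irradiated Il10-/- and irradiated WT mice (n = 5 and 5, adjusted p = 0.439 in limma).

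Casp8, the initiator caspase of these receptors, did not pass the filter on change. It read 6.56 to 7.96 (median 7.65) in unirradiated WT, 7.45 to 8.47 (median 8.01) in irradiated WT, 7.52 to 8.06 (median 7.79) in unirradiated Il10-/- and 7.63 to 8.43 (median 8.16) in irradiated Il10-/- mice. All groups overlapped, and it was well above background on every array. Its differences after radiation were 0.60 (95% interval -0.16 to 1.35) in WT and 0.24 (95% interval -0.22 to 0.70) in Il10-/- mice.

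Cflar, which encodes the caspase-8 inhibitor c-FLIP, was read differently by its 3 probes. Probe A_55_P1983459, which passed the filters, was well above background on 0 of 5 unirradiated WT arrays, 2 of 5 irradiated WT, 4 of 5 unirradiated Il10-/- and 1 of 5 irradiated Il10-/- arrays. Against unirradiated WT it differed by 0.74 in unirradiated Il10-/- (adjusted p = 0.266 in limma) and by 0.71 in irradiated WT (adjusted p = 0.133 in limma). Neither difference was called. Their limma intervals, -0.021 to 1.49 and -0.0045 to 1.43, both included 0, so no rise is shown. Set against the dimmest signals counted as above background on those arrays, the folds were 1.04 and 1.03. These folds are not lower limits. Probe A_52_P226929 read 3.59 to 5.26 and 5.15 to 5.87 in unirradiated and irradiated WT, and 4.81 to 5.82 and 5.26 to 6.27 in Il10-/- mice. Probe A_55_P1983468, the probe placed on chromosome 3, read 5.61 to 6.87 and 6.05 to 6.46 in WT, and 5.49 to 5.91 and 6.03 to 6.77 in Il10-/- mice, where the groups did not overlap. Both were outside the filter on change; without it, the chromosome 3 probe differed by 0.76 ± 0.20 (SE) in Il10-/- mice (n = 5 and 5, adjusted p = 0.0341 in limma), short of the call. The 3 probes disagreed in sign between unirradiated genotypes, at 0.44, 0.74 and -0.39 in the order described for their positions.

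**Figure D3:**
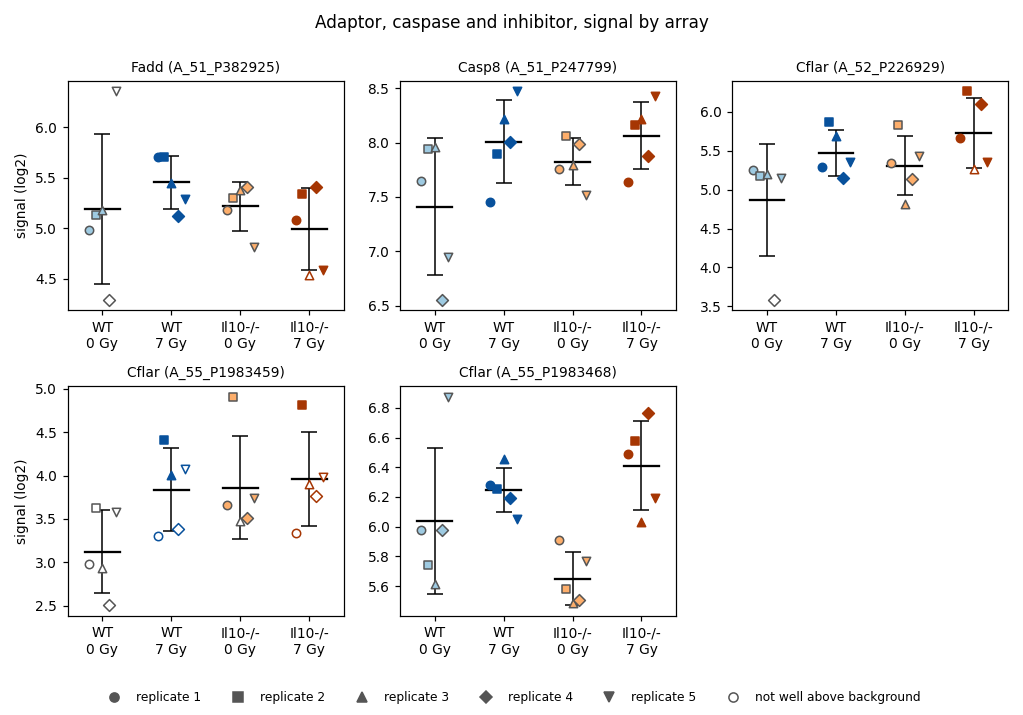
Log2 signal (vertical axis) of the Fadd, Casp8 and 3 Cflar probes in the 4 groups (horizontal axis), drawn as for the receptors, with the mean ± SD (n = 5). Unirradiated WT replicate 4 lies at 3.59 for Cflar probe A_52_P226929, and unirradiated WT replicate 5 at 6.36 for Fadd.

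Counted over genes, 1 of the 9 tested members, Tnfrsf10b, was called after radiation in WT and 2, Tnfrsf10b and Fas, in Il10-/- mice. Of all features, 11.1% were called in WT (1832 of 16507) and 11.3% in Il10-/- mice (1862 of 16507), so 1 and 2 of 10 tested probes are near the background. Irradiated arrays lay wholly above unirradiated ones for 4 of 10 tested probes in WT (Fas, Tnfrsf10b and both Tnfrsf1a probes), against 14.8% of all features. In Il10-/- mice this held for 2 of 10, against 11.2% of all features. The median difference over the 10 tested member probes was 0.72 in WT and 0.50 in Il10-/- mice, and over all features tested it was -0.07 and 0.14. Over all 13 member probes, which include those outside the filter on change, it was 0.61 and 0.42. These medians are descriptions, since probes of one gene share a transcript and WT values share unirradiated replicate 4.

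Between unirradiated genotypes 0 members were called, with 3 of 10 tested probes at an unadjusted p under 0.05 in limma (Fasl, Tnfsf10 and Tnfrsf1a probe A_52_P192426), while 0.491% of all features were called (81 of 16507) and 3216 had an unadjusted p under 0.05. All 10 tested probes had higher means in Il10-/- mice, against 50.6% of all features, but Fadd and Tnfrsf1b were each at -0.20 without unirradiated WT replicate 4, and Fadd (0.03) was also below 0 under 3 alternatives. A single probe, A_52_P192426, did not overlap between genotypes, against 5.01% of all features. The other Tnfrsf1a probe, A_55_P2051099, overlapped, with a difference of 0.55 (adjusted p = 0.261 in limma). Between irradiated genotypes 0 members were called, with 3 tested probes at an unadjusted p under 0.05 in limma (Fasl, Tnfrsf10b and Tnfsf10), while 0.0182% of all features were called (3 of 16507) and 2190 (13.3%) had an unadjusted p under 0.05. The mean of Tnfrsf10b was 0.71 ± 0.22 (SE) higher in irradiated mice labelled Il10-/- than in those labelled WT (n = 5 and 5, adjusted p = 0.262 in limma), and 1 probe, Tnfsf10, did not overlap, against 3.91% of features. The responses of the genotypes were compared as an interaction, in which 0 members and 0% of features were called by limma (0 of 16507), with 0 members and 1232 features at an unadjusted p under 0.05. The response of Il10-/- minus that of WT was 0.21 (95% interval -0.49 to 0.90) for Tnfrsf10b, -0.20 (95% interval -0.95 to 0.55) for Fas and -0.61 (95% interval -1.43 to 0.21) for Tnfrsf1a probe A_52_P192426. For the other Tnfrsf1a probe, A_55_P2051099, it was -0.08 (95% interval -0.79 to 0.63). Leaving out 1 array put the value of probe A_52_P192426 between -0.77 and -0.36. The comparisons share groups, so their values are not independent of each other.

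**Figure D4:**
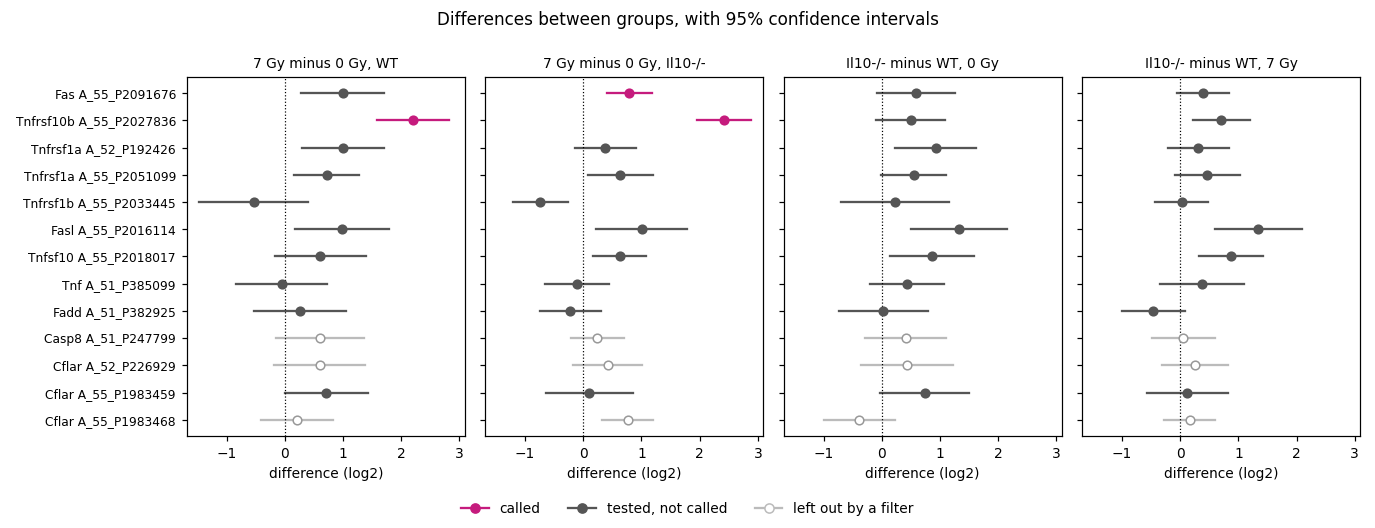
Difference in log2 signal (horizontal axis) of each member probe (vertical axis) in 4 comparisons, with 95% intervals from limma; filled pink points were called, dark points tested and not called, and open points left out by a filter. Tnfrsf10b stands at 2.20 in WT and 2.41 in Il10-/- mice, and Fas at 0.79 in Il10-/- mice, the 3 calls among the members.

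Of 89 other genes of these pathways, 88 were on the array and 52 had a probe that passed the filters. After radiation 1 rose and 3 fell in WT, and 3 rose and 7 fell in Il10-/- mice, and 0 were called in the other 3 comparisons in limma. These are 4 of 52 and 10 of 52 genes, while 11.1% and 11.3% of all features were called. The median difference of the 52 was -0.44 in WT and -0.077 in Il10-/- mice, against -0.07 and 0.14 over all features. Among adaptors and kinases, Mlkl, the effector of necroptosis, rose by 2.42 ± 0.27 (SE) in WT (adjusted p = 0.000267 in limma) and by 1.60 ± 0.24 (SE) in Il10-/- mice (adjusted p = 0.000905 in limma). Its signals were 4.74 to 5.26 and 7.19 to 8.05 in unirradiated and irradiated WT, and 5.10 to 5.45 and 6.46 to 7.62 in Il10-/- mice, without overlap in either genotype. Traf5, an adaptor of TNF family receptors, fell by 1.55 in WT and by 1.29 in Il10-/- mice. In Il10-/- mice Tab3, a partner of the kinase TAK1, fell by 1.70 and Casp8ap2, a caspase-8 associated protein, by 1.53 with one of its probes, which was well above background on 0 of 5 irradiated arrays, and therefore at least 1.54-fold. Its other probe differed by -0.65. In WT neither Tab3 nor Casp8ap2 was called, though the means were lower after radiation. They were 6.23 against 7.54 for Tab3 and 3.28 against 4.05 for the Casp8ap2 probe called in Il10-/- mice.

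The receptor for the B-cell survival factor BAFF, Tnfrsf13c, had the largest difference in the list. It read 7.92 to 9.46 in unirradiated and 3.74 to 4.43 in irradiated WT, so that it fell by 4.70 ± 0.34 (SE) (adjusted p = 2.65e-05 in limma). The Il10-/- arrays read 7.47 to 9.16 and 3.55 to 4.04, well above background on 0 of 5 irradiated arrays, which gives at least 18.6-fold lower (adjusted p = 1.10e-05 in limma). Other receptors called lower in Il10-/- mice were Cd40, the receptor for CD40 ligand, by 1.65 and Tnfrsf13b, another BAFF receptor, by 0.83. In WT neither was called, though both means were lower after radiation. They were 5.79 against 6.64 for Cd40 and 6.38 against 7.41 for Tnfrsf13b. Of the ligands, Ltb, lymphotoxin beta, fell by 1.62 in WT, and Tnfsf8, CD30 ligand, rose by 1.16 in Il10-/- mice. Ltb was not called in Il10-/- mice, with means of 11.20 after radiation against 12.17. Tnfsf8 was not called in WT, at 5.06 against 5.00. The mean of 9 B-cell markers was 8.52 to 9.44 in unirradiated and 5.43 to 6.09 in irradiated WT, and 7.91 to 9.0 and 5.19 to 5.98 in Il10-/- mice, and its part in these falls was not tested. Of the 7 tested NF-kB subunits and feedback genes, 0 were called in either genotype by limma. The 2 called genes not yet named, Pea15a (0.99) and Traf3 (-0.81), both in Il10-/- mice, fell outside the rule for naming and were added after their values were seen. In WT neither was called, with means after radiation of 6.41 against 5.63 for Pea15a and 7.49 against 8.48 for Traf3.

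Genes whose signals ran most closely with a member over the 20 arrays were listed as a description, out of 14234 other genes. These arrays share groups, slides and cell composition. Tnfrsf10b ran closest with Fez2 (r = 0.97), Phlda3 (r = 0.96) and Tmem41a (r = 0.96), and within groups the same r values were 0.68, 0.42 and 0.44. Fas ran closest with Rnf169, Stard3 and H2-Q7 (r = 0.96, 0.96 and 0.95). Fasl ran closest with Xcl1 (r = 0.90), Tnfsf10 (r = 0.89) and Capza1 (r = 0.88), and Tnfsf10 with Tnfrsf18, Cxcr3 and Xcl1 (r = 0.95 each). Tnfrsf1a ran closest with Tyrobp, Slc2a6 and C5ar1 (r = 0.97, 0.97 and 0.96), Tnfrsf1b with Phrf1, Pira2 and Cherp (r = 0.92, 0.92 and 0.91) and Fadd with Pgm3, Dhx32 and Rwdd2b (r = 0.94, 0.91 and 0.89). The lowest and highest Fadd values of unirradiated WT, in replicates 4 and 5, were not well above background, and their part in these r values was not tested. For Tnf the named genes were Lfng and Pik3r5 (r = 0.87 and 0.86), followed by an unnamed probe (r = 0.83). For Cflar r was at most 0.82, all 3 with transcripts that the array names only by number. It was read there by the dim probe A_55_P1983459, the only Cflar probe that passed the filters. Within groups, r over all these pairs ran from 0.42 (Tnfrsf10b with Phlda3) to 0.94 (Tnfrsf1a with Tyrobp), and was 0.66 for Fasl with Tnfsf10. Among the members themselves, Fas and Tnfrsf1a had r = 0.91, Fasl and Tnfsf10 r = 0.89, and Fas and Tnfrsf10b r = 0.88.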

How the data were processed

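The authors hybridized Cy3-labelled, globin-reduced blood RNA of 20 mice to Agilent mouse 4x44K v2 arrays. The deposited Feature Extraction files give an intensity for each spot, from which the authors' scanner software had removed background and spatial trend (version 12.0.2.2 per the file headers, 10.7 per the labels). The deposited series table holds log2 values. For probes of 1 spot these equal the log2 processed intensity minus 1 constant per array, with 0 of 313900 compared values off by more than 0.01. Only values present in both were compared, and probes of several spots were not part of this check.

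Outlier spots were left out, spots of a probe averaged on the log2 scale, and each array scaled by its median log2 distance from 1 array (unirradiated Il10-/- replicate 3) over probes significant on both; these constants lay within 0.0109 of the deposited ones. Features marked or not significant on 25% or more of arrays, or 1.5-fold from their median on fewer than 20%, were removed. Groups were compared with limma 3.58.1 (R 4.3.3) over all 16507 features, after the methods' threshold; the fit was tested on simulated data. Named genes were the 10 members, up to 3 called pathway genes per comparison and role, the 3 genes with the highest r per member, and Il10. The members and lists were chosen with earlier results of these data known. A gene of the pathway list is not reported here and was left out of its counts. Array number limits the precision. Slides held 1 array per group and 1 replicate number. Deviations of same-numbered arrays correlated at 0.07 to 0.33 between the WT doses. Between irradiated genotypes the correlations were 0.67, 0.69, 0.13, -0.03 and 0.61 for replicates 1 to 5. Other pairs of groups ran from -0.67 to 0.43, and no pair was above 0.1 for every number. The main fits held no slide term, and the replicate block is among the alternatives. Alternatives are named in the closing section.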

Additional observations from a re-analysis of the deposited data

Results flagged for a closer look

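Of 52 groups of 5 values (13 probes in 4 groups), 3 held an array far from the other 4, judged by its gap to the nearest value over the range of the group, with a critical value of 0.71; chance flags about 1 in 20. For Cflar probe A_52_P226929, unirradiated WT replicate 4 read 3.59 against 5.15 for the next array (gap over range 0.937). For Tnfrsf1b the same array read 5.58 against 7.58 (gap over range 0.873). For Cflar probe A_55_P1983459, unirradiated Il10-/- replicate 2 read 4.91 against 3.75 (gap over range 0.808).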

How the results depend on the processing

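Tnfrsf10b was called in Il10-/- mice under 12 of 12 alternatives that gave a value and without any 1 array (2.32 to 2.55). In WT it was called under 11 of 12, the exception being the liver mean as a covariate, and without any 1 array (2.07 to 2.32). Normexp gave no value for Tnfrsf10b, which did not pass the filter on change there, and the fit of all 4 groups was not run for the interaction.

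The number of member genes called after radiation in WT, 1 in the report, was 0 with normexp and 0 with the liver covariate. It was 3 at an adjusted p below 0.05 alone (Fas, Tnfrsf10b and Tnfrsf1a) and 2 with all 4 groups in 1 fit (Fas and Tnfrsf10b). In Il10-/- mice it was 2 in the report, 1 with scaling on the array median, the 75th percentile or quantiles, 0 with normexp, 4 at an adjusted p below 0.05 alone, 1 with all 4 groups in 1 fit, 1 with the liver covariate and 1 with replicates 1 and 2 averaged, an alternative chosen after seeing the data. With the replicate block it was 1 in WT and 1 in Il10-/- mice, where Fas was lost, and the block changed no other call. Leaving out 1 array gave 1 to 2 in Il10-/- mice. The other counts of member genes were 0 throughout. In the alternatives in which Fas lost its call, single left-out arrays aside, its difference was 0.15 (normexp) to 0.79; the cause was not tested.

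Over all features, 1832 calls in WT became 343 with normexp, 354 with the liver covariate, 848 with the pair averaged, 2814 with all 4 groups and 4115 at an adjusted p alone. In Il10-/- mice 1862 became 1, 2298, 913, 1798 and 4179 in the same order. Between unirradiated genotypes 81 became 0, 426, 1, 216 and 16, and lay at 5 to 157 under the others. Between irradiated genotypes 3 became 0 to 6, or 78 without moderated variance. The split of higher and lower calls moved with scaling: 1115 of 1832 were higher in WT, against 795 of 1556 at the 75th percentile and 705 of 1399 with quantiles, and 940 of 1862 in Il10-/- mice, against 609 of 1695 at the array median, 642 of 1713 and 674 of 1670. Medians of all features shifted by 0.35 (unirradiated genotypes, array median), -0.21 (WT, 75th percentile), and -0.24, -0.16 and -0.31 in Il10-/- mice (array median, 75th percentile, quantiles), by 0.10 and -0.10 between unirradiated and irradiated genotypes (quantiles), by -0.28 and -0.19 for the interaction (array median, quantiles), and by -0.51 to 0.66 with normexp in the comparisons of groups. The largest shift was -1.01, for the interaction with normexp. Without filters, over another set of features, the shifts were -0.37 (unirradiated genotypes), -0.16 (WT), 0.36 (Il10-/-), 0.24 (irradiated genotypes) and 0.39 (interaction).

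The following values changed sign, and none was called in either setting. Between unirradiated genotypes Fadd was -0.039 (75th percentile), -0.099 (liver) and -0.012 (averaged). In WT, Tnf was 0.032 (array median), 0.18 (quantiles), 0.58 (liver) and 0.19 (averaged), and Fadd -0.14 (liver). In Il10-/- mice Cflar probe A_55_P1983459 was -0.045 (array median), -0.017 (75th percentile) and -0.017 (quantiles), and Tnfrsf1a probe A_52_P192426 was -0.23 (normexp). Between irradiated genotypes Tnfrsf1b was -0.024 (75th percentile), -0.034 (quantiles), -0.23 (normexp) and -0.038 (averaged), and under normexp Tnfrsf1a was -0.51 and -0.26 and Fas -0.17. For the interaction Fasl was -0.22 (array median), -0.086 (quantiles), -0.15 (normexp) and -0.42 (liver), Tnfsf10 was -0.22 (array median), -0.27 (quantiles), -0.13 (liver) and -0.17 (averaged), Tnfrsf10b was -0.026 (array median) and -0.31 (quantiles), Tnfrsf1a probe A_55_P2051099 was 0.14 (quantiles) and Tnf 0.15 (deposited table).

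Leaving out 1 array turned the sign of further uncalled values, whose ranges were: between unirradiated genotypes -0.20 to 0.32 (Fadd) and -0.20 to 0.37 (Tnfrsf1b), both negative without unirradiated WT replicate 4; in WT -0.24 to 0.12 (Tnf); in Il10-/- mice -0.11 to 0.36 (Cflar probe A_55_P1983459) and -0.20 to 0.021 (Tnf); between irradiated genotypes -0.090 to 0.28 (the same Cflar probe) and -0.051 to 0.15 (Tnfrsf1b); and for the interaction -0.31 to 0.049 (Fas), -0.24 to 0.22 (Fasl), -0.23 to 0.14 (Tnf), -0.21 to 0.049 (Tnfrsf1a probe A_55_P2051099), -0.35 to 0.22 (Tnfrsf1b) and -0.14 to 0.25 (Tnfsf10). The dim probes (Tnf, Tnfrsf10b without radiation and Cflar probe A_55_P1983459) are limited by signal over background.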
